A study of Homo sapiens with 7 samples.

Results

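The intervals described here are the enriched intervals of 6 PIXUL-ChIP-seq lists that lay, with all of their bases, within 200 kb of the first or last base of chromosomes 1 to 22 in the human genome build hg19. They numbered 941 of the 240889 intervals in the 6 lists. For comparison, the same lists gave 1174 intervals between 1 and 1.2 Mb inside the same ends. The rule used position only, so no measured value chose the members. All libraries came from HCT116, an established human colorectal carcinoma line, grown to 200000 cells per well, cross-linked and sonicated for 6 min in 100 µl in the 96-well PIXUL instrument. The labels name no treatment and no genetic change, and each antibody was used on chromatin of 1 well, which gave 1 library. The 6 lists are those of H3K4me1, H3K4me3, H3K9Ac, H3K36me3, H3K27me3 and the DNA-binding protein CTCF. Without replicates no difference below has a replicate check and none was tested. The ranges given are 95% intervals (Wilson) that cover counting error only, and the sequencing depth cannot be read from the lists. Of 8 genes of colon epithelium, 5 had H3K4me3 within 1 kb of the transcription start site (TSS), EPCAM, CDH1, KRT8, KRT18 and CDX2, but not VIL1, CDX1 or CEACAM5. Over all protein-coding genes of the genome the share was 61.6%, which is near 5 of 8, so this count does not check the cell type. Of the 9 markers of blood, endothelium, fibroblasts, glia, neurons and liver that were found in the annotation, 1 (COL1A1) had H3K4me3 there.

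Human chromosomes end in tandem copies of TTAGGG, and the sequence just inside them, the subtelomere, is a mosaic of blocks that are shared between many ends. H3K4me3 and H3K9Ac mark active promoters, H3K4me1 enhancers and the flanks of promoters, H3K36me3 the bodies of transcribed genes and H3K27me3 genes silenced by Polycomb. CTCF binds a non-palindromic motif, acts at insulators and loop anchors, and is known to occupy human subtelomeres, from which the telomeric repeat RNA TERRA is transcribed toward the chromosome end.

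Many of the CTCF intervals that lay closest to the ends had similar sequences, which are shown before the values. Among those within 5 kb of the first assembled base, the intervals of 2p, 5p, 11q, 13q, 18p and 18q had no near-identical copy elsewhere in hg19. At 5q, 10q, 11q and 18p the outermost of them held no core match. The 12-base CTCF core was searched on both strands, and each match is printed 5′ to 3′ on the strand of the motif, with 20 bases on each side in lower case and the core in capitals, from hg19. The matches shown come from CTCF intervals that began within 5 kb of the first assembled base, followed by 2 sequences from further inside that recurred at 5 or more ends.
1p, 9p, 12p, 15q and 16p, as at chr1:11207-11258, minus strand: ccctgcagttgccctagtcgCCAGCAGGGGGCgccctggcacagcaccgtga
1p, 12p, 15q and 16p, second site, as at chr1:11265-11316, minus strand: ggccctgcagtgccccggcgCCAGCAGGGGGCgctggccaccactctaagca
9p, second site, chr9:11378-11429, minus strand: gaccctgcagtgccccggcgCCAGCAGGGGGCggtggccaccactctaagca
2p, chr2:11583-11634, minus strand: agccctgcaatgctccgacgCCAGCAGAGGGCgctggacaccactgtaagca
1q, 19q and 21q, as at chr19:59117916-59117967, plus strand: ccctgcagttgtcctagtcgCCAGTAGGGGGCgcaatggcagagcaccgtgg
4p and 4q, as at chr4:11791-11842, minus strand: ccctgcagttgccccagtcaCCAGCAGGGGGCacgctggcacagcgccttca
5p, chr5:13255-13306, minus strand: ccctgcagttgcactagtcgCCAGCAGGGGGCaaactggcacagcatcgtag
18q, chr18:78015858-78015909, minus strand: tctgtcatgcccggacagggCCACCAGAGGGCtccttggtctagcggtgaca
13q, chr13:115105439-115105490, minus strand: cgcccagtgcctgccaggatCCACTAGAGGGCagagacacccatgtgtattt
3q, 7p, 9q, 11p and 16q, as at chr7:20921-20972, minus strand: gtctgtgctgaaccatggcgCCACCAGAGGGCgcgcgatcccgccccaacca
5q, 6p, 6q, 11p, 15q and 19p, as at chr5:180796142-180796193, minus strand: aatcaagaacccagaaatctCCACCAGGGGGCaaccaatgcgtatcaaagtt

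The first of these 52-base sequences was identical at 5 ends. The sequence of 1q, 19q and 21q differed from it at 6 bases, and those of 4p and 4q and of 5p each differed from it at 7. The second site of 9p differed from the second site of 1p, 12p, 15q and 16p at 2 bases, and that of 2p at 7. At 1p the pair of matches lay 58 bp apart. The sequences of 18q and 13q belonged to neither of these groups, with 27 and 34 bases different from the first. The 13q site was not alone, as sites with the same core and similar flanks lay at 1q, 2p, 4p, 5p and 6p. Like the 13q site they ran away from the end. Their intervals began at least 8599 bp from the first assembled base, and they are not printed. The last pair of printed sequences lay further inside and ran in opposite directions. That of 3q, 7p, 9q, 11p and 16q ran toward the chromosome end at all 5, in intervals that began at least 10656 bp from the first assembled base and reached 9.70 to 17.2. That of 5q, 6p, 6q, 11p, 15q and 19p ran away from it at all 6, in intervals that began at least 25413 bp inside and reached 5.56 to 8.56. A further sequence was shared by 4q and 10q, and another by 1p and 15q, both toward the end and not printed.

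At 18p and 9q the core stood in a tandem array inside 1 CTCF interval, and a pair of neighbouring repeats of each is printed for this reason.
18p, chr18:96762-96873, minus strand: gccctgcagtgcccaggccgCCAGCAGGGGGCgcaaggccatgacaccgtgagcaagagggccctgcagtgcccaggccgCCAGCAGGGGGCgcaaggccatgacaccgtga
9q, chr9:141020781-141020893, plus strand: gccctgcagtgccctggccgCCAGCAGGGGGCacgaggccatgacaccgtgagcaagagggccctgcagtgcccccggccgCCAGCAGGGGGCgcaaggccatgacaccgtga

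The 18p interval, chr18:96508-97720, held 12 matches, and the 9q interval, chr9:141020535-141021755, held 11. In both the matches followed each other at 60 to 61 bp, all toward the chromosome end, and made up 4 distinct 52-base sequences at 18p and 6 at 9q. The fold enrichments were alike, 19.8 at 18p and 18.8 at 9q.

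The assembled sequence limits what could be measured. At 39 of the 44 ends hg19 holds between 90000 and 200000 assembled bases within 200 kb, 6.25 Mb in all. The short arms of chromosomes 13, 14, 15, 21 and 22 hold none and gave no interval. The inner regions hold 7.63 Mb. The outer sequence had a GC content of 44.9%, beside 49.2% in the inner regions and 40.9% in the genome. It held 75 protein-coding genes, or 12 per Mb, beside 17.4 per Mb in the inner regions and 7.05 in the genome. Pseudogenes made up 38.1% of its 386 annotated genes and 9.38% of the 320 genes of the inner regions.

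CTCF and H3K27me3 intervals were denser in the outer 200 kb than 1 to 1.2 Mb inside, and H3K4me1 and H3K9Ac intervals were sparser. For CTCF, 217 intervals gave 34.7 per Mb, beside 24.4 per Mb inside, a ratio of 1.42 (1.17 to 1.73). For H3K27me3, 197 intervals gave 31.5 per Mb, beside 23.3, a ratio of 1.35 (1.1 to 1.65). H3K4me1 had 157 intervals and a ratio of 0.737 (0.605 to 0.899), and H3K9Ac had 106 intervals and a ratio of 0.644 (0.509 to 0.814). For H3K4me3, with 95 intervals, and H3K36me3, with 169, the interval of the ratio included 1, at 0.928 (0.711 to 1.21) and 0.921 (0.755 to 1.12). In all 6 lists the outer density was above that of the whole list, by a factor of 1.42 for H3K4me1 and H3K9Ac up to 2.70 for H3K4me3. End by end, CTCF was denser outside than inside at 27 of 39 ends and H3K27me3 at 23, whereas H3K4me1 and H3K9Ac were sparser outside at 23 each. Counted per protein-coding gene in place of per base, the ratio was above 1 for H3K4me1, at 1.07, and below 1 only for H3K9Ac, at 0.935. The H3K27me3 ratio turned to 0.651 (0.283 to 1.5) when only the intervals past the limits of the study's methods were counted, 8 outside and 15 inside, and was 1.02 (0.845 to 1.23) against the region 2 to 2.2 Mb inside. With the outer 100 kb set against 1 to 1.1 Mb, the ratio was 1.02 (0.767 to 1.36) for H3K4me1, 0.960 (0.691 to 1.33) for H3K9Ac and 2.02 (1.52 to 2.69) for CTCF.

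**Figure D1:**
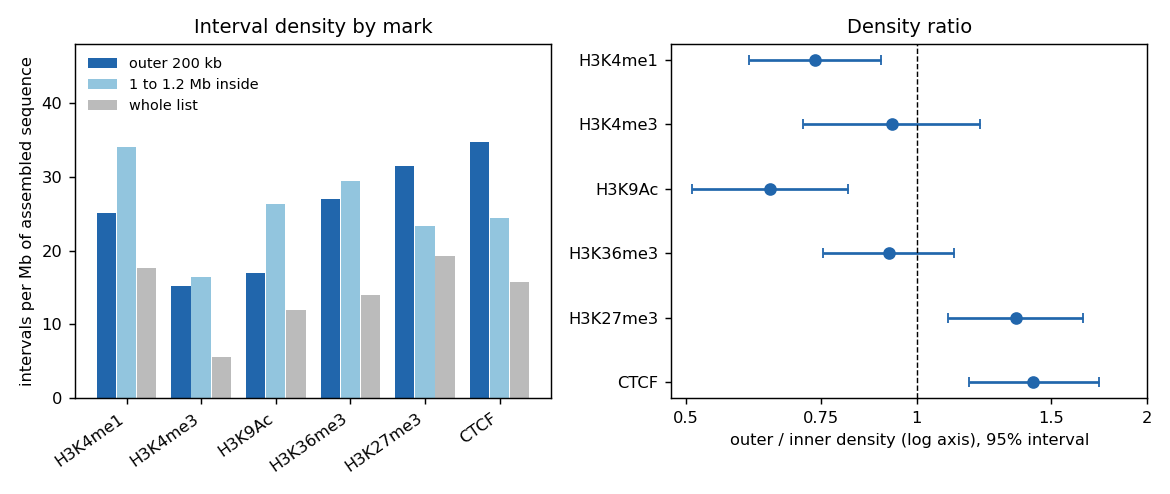
Left, intervals per Mb of assembled sequence (vertical axis) for each mark in the outer 200 kb, 1 to 1.2 Mb inside, and the whole list. Right, the outer density divided by the inner density (log axis), with bars for the 95% interval and a dashed line at 1; CTCF (1.42) and H3K27me3 (1.35) lie to the right of the line, and H3K4me1 (0.737) and H3K9Ac (0.644) to the left.

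The share of bases covered followed the counts for most marks. CTCF intervals covered 3.64% of the outer sequence and 2.23% of the inner, and H3K27me3 intervals 8.95% and 7.40%. H3K4me1 covered 4.34% against 8.93% inside, H3K9Ac 3.43% against 7.27%, and H3K36me3 9.53% against 16.2%. The outer H3K36me3 intervals were therefore narrower as a group, with a median width of 1777 bp, beside 2316.5 bp inside. The widest outer interval of any mark was nevertheless an H3K36me3 interval of 43254 bp at 13q, chr13:115001741-115044994, across CDC16, a subunit of the anaphase-promoting complex.

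Part of the members did not reach the limits that the study's methods set on q-value and fold enrichment. For H3K4me1, 84 of 157 members (53.5%) passed, beside 63.9% of the whole list, and for H3K4me3 61 of 95 (64.2%), beside 79.1%. H3K9Ac went the other way, with 57 of 106 (53.8%) past the limits, beside 37.2%. CTCF had 111 of 217 (51.2%), beside 54.8%. H3K27me3 had 8 of 197 (4.06%), beside 2.81%. None of the 169 H3K36me3 members passed (0 to 2.22%), beside 0.225% of the whole list, so their values describe weak enrichment. The median fold enrichment over the reference was 11.2 for H3K4me3 members and 18.0 in the whole list, 6.46 and 7.15 for CTCF, and 2.86 and 2.93 for H3K27me3.

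The CTCF intervals were concentrated at the very end of the assembled sequence. In the first 20 kb, 52 CTCF intervals at 31 of 39 ends gave 66.7 per Mb. The density was 37.5 per Mb between 20 and 40 kb, 26.3 between 120 and 140 kb and 15.8 between 140 and 160 kb. H3K36me3 also had its highest density within 80 kb in the first 20 kb, at 30.8 per Mb beside 24.3 to 28.5, but was denser still between 140 and 160 kb, with 19 intervals at 9 ends. H3K4me1, H3K4me3, H3K9Ac and H3K27me3 were each denser between 20 and 40 kb than in the first 20 kb. H3K27me3 and H3K4me3 stood at 20.5 and 12.8 per Mb there, against 42.7 and 25.9 per Mb between 20 and 40 kb. Between 140 and 180 kb the bins rest on 19 ends only. At ends with a longer terminal gap, bins that far in would pass the limit of 200 kb from the chromosome end.

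**Figure D2:**
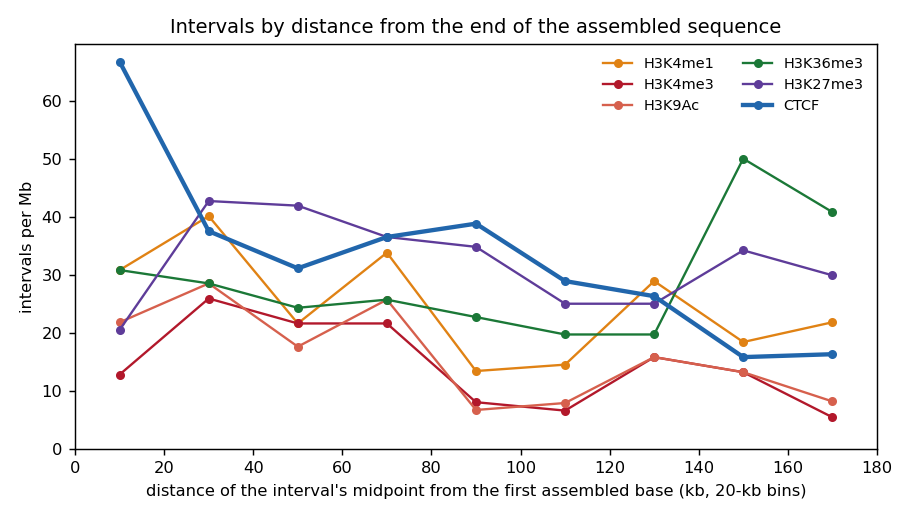
Intervals per Mb (vertical axis) in 20-kb bins of distance from the first assembled base (horizontal axis), 1 line for each mark. Each bin takes in the ends at which it lies within 200 kb of the chromosome end. CTCF starts at 66.7 per Mb, and the other marks start between 12.8 and 30.8.

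CTCF was also the outermost mark at 21 of the 38 ends with any interval. H3K27me3 and H3K36me3 were outermost at 5 ends each, H3K9Ac at 4, H3K4me1 at 2 and H3K4me3 at 1. The first CTCF interval began a median of 6381 bp inside the assembled sequence, and within 5 kb at 17 ends. For H3K36me3 the median was 14268.5 bp, for H3K4me1 16653.5 bp, for H3K9Ac 24709 bp, for H3K27me3 28918.5 bp and for H3K4me3 31177 bp. The CTCF interval nearest to an end lay 473 bp inside at 11q, chr11:134944471-134946043, with a fold enrichment of 6.92 and no core match. The next, at 16p, chr16:60538-61388, lay 537 bp inside and reached 30.3, with both sites of the first group of sequences above. Over that whole group the intervals reached 21.3 at 1p, 21.9 at 9p, 16.2 at 15q and 38.1 at 12p. At 12p the same sequence lay 33861 bp inside, chr12:93862-94806, and ran away from the end. The sequence of the second group lay in intervals of 16.7 at 1q, 18.6 at 19q and 16.9 at 21q. The 4p and 4q intervals reached 9.29 and 6.68, and the 5p interval 5.37, the lowest of these.

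The highest CTCF member held none of these sequences and no core match. It lay at 17q, chr17:81152917-81154083, 41127 bp inside the assembled sequence, reached a fold enrichment of 50.2 and had no copy elsewhere in hg19. It was followed by the 12p interval (38.1) and the 16p interval (30.3), so that 2 of the 3 highest CTCF members belonged to the sequence group shared by 1p, 9p, 12p, 15q and 16p.

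Core matches were more frequent in these CTCF intervals than elsewhere, and they had a common direction near the ends. Of the 217 members, 57 (26.3%, 20.9 to 32.5) held at least 1 match, beside 15.6% (11.1 to 21.5) of the intervals inside and 15.7% of the whole list. In windows of 697 bp, the median width of the members, 0.830% of the outer and 0.422% of the inner sequence held a match. Of the 57 intervals, 45 held 1 match, 7 held 2 and 5 held more. Read 5′ to 3′ on the motif strand, the match ran toward the chromosome end in 34 intervals and away from it in 23, with no interval holding both. Within 5 kb of the first assembled base it ran toward the end in 11 of 13 intervals, with 18q and 13q as the exceptions. Beyond 5 kb the counts were 23 and 21, and 16 and 13 in the inner regions. The ends share copies of the same site, so these counts are not independent: the 17 matches within 5 kb make up 9 distinct sequences, of which 7 run toward the end.

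Tandem TTAGGG was overlapped by a CTCF interval once but often lay near one. The search for 2 tandem copies on either strand found 58 runs at 31 ends, with stretches up to 200 bp apart joined. Of these, 21 runs at 19 ends began within 1 kb of the first assembled base, with a median length of 192 bp. None of the 21 was overlapped by a CTCF interval, 13 lay within 1 kb of one and 17 within 2 kb, and the median gap was 744 bp. The 37 runs further inside had a median gap of 5362 bp, and 8 lay within 1 kb of a CTCF interval, 1 of which, at 11p, was overlapped in part. For H3K4me1, 3 runs were overlapped, for H3K9Ac 2, for H3K36me3 and H3K27me3 1 each and for H3K4me3 none. In windows of 697 bp the repeat was present in 0.628% of the outer and 0.0458% of the inner sequence.

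CTCF members were more often alone than the inner ones. Of the 217, 115 (53.0%, 46.4 to 59.5) overlapped no interval of the other 5 lists by 1 base or more, beside 30.1% (24.0 to 37) inside and 52.1% of the whole list. An H3K4me1 interval overlapped 26.7% of them, beside 55.4% inside and 31.8% of the whole list. The outer share therefore lay near that of the whole list, and it was the inner region that differed from it.

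Near-identical copies set the ends apart from the region inside. A copy was counted where an alignment elsewhere in hg19 took in at least 50% of an interval with at least 95% of its bases identical. Of the 941 members, 408 (43.4%, 40.2 to 46.5) had one, beside 33 of 1174 (2.81%, 2.01 to 3.92) inside. The sequence itself was copied to the same extent, since 42.7% of the 6244 windows of 1 kb in the outer regions had a copy by the same rule, and 2.98% of those inside. For 5 marks the interval of the share of members with a copy included that of the windows, from 34.0% (25.6 to 43.4) for H3K9Ac to 43.3% (35.8 to 51.1) for H3K4me1. For CTCF it was 54.4% (47.7 to 60.9), above the windows. Copies at another chromosome end were found for 346 members. Of the 524 copies of CTCF members at other ends, 411 (78.4%) lay in a CTCF interval too. This held for 65.6% of the copies of H3K4me1 members, 63.3% for H3K36me3 and 60.1% for H3K4me3. It held for fewer copies of H3K9Ac members, 50 of 131 (38.2%), and of H3K27me3 members, 112 of 342 (32.7%). These shares count each copy, so members with many copies weigh more. Counted by member, every copy at other ends was marked for 73 of 108 CTCF, 23 of 55 H3K4me1 and 16 of 56 H3K36me3 members. The counts were 15 of 33 for H3K4me3, 17 of 30 for H3K9Ac and 19 of 64 for H3K27me3. Reads that match several ends equally well cannot be assigned to 1 of them by their sequence, and how such reads were placed is not given in the sources used here, so that the part of each end in a shared signal was not tested.

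The concentration of CTCF at the ends was present in sequence with and without a copy by this rule. Sequence without one can still resemble that of other ends. The 2p and 5p sites near the end had no copy, but each differed from a shared sequence at 7 bases. At 90% identity over 50% the share of CTCF members with a copy was 65.0%. In the first 20 kb, where 70.9% of the 1-kb windows had a copy, CTCF density was 69.0 per Mb in copied sequence (38 intervals) and 61.9 per Mb in sequence without a copy (14 intervals). Between 120 and 140 kb these values were 36.9 and 22.1 per Mb. Over the whole outer region, however, CTCF members numbered 44.3 per Mb of copied and 27.7 per Mb of uncopied sequence. With copied sequence and intervals left out of both regions, the ratio of outer to inner density was 1.17 (0.915 to 1.5) for CTCF, whose interval then included 1, and 1.45 (1.15 to 1.82) for H3K27me3.

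**Figure D3:**
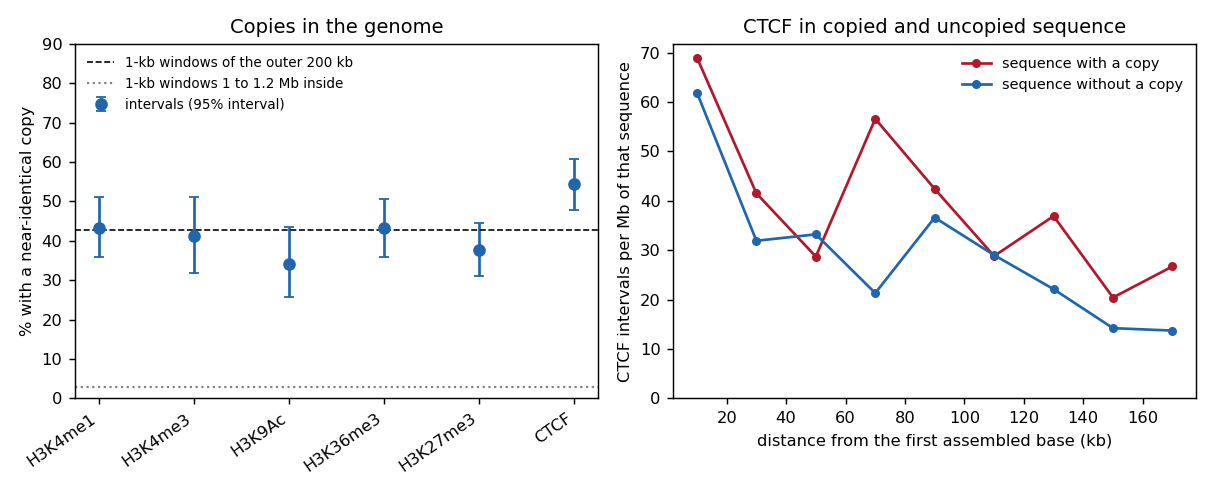
Left, the share of members of each mark with a near-identical copy in hg19 (vertical axis, %), with bars for the 95% interval, and lines for the 1-kb windows of the outer (42.7%) and inner regions (2.98%). Right, CTCF intervals per Mb against distance from the first assembled base in sequence with and without a copy; both lines start above 60 per Mb.

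The ends differed widely in what they carried. The most intervals were found at 19q with 60, 17q with 54 and 1q with 47, and the median end had 23. These 3 ends held 17.1% of all members. At 19q, which has 10 protein-coding genes within 200 kb, 15 H3K4me1, 13 H3K36me3, 11 H3K9Ac and 10 H3K4me3 intervals stood beside 2 of H3K27me3. At 17q, 15 H3K4me1 intervals stood beside 13 of H3K27me3. The only assembled end without any interval was 3p, with 140 kb of sequence and no protein-coding gene, and the region 1 to 1.2 Mb inside 3p held 1 interval. At 14q, where the immunoglobulin heavy chain variable genes lie, the 4 intervals were all of CTCF, with fold enrichments of 3.62 to 6.53. CTCF was the most evenly spread mark, present at 38 ends with at most 10 intervals, and its top 3 ends held 12.9% of its members. For H3K4me3 and H3K27me3 the top 3 ends held 32.6% and 31.0%.

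**Figure D4:**
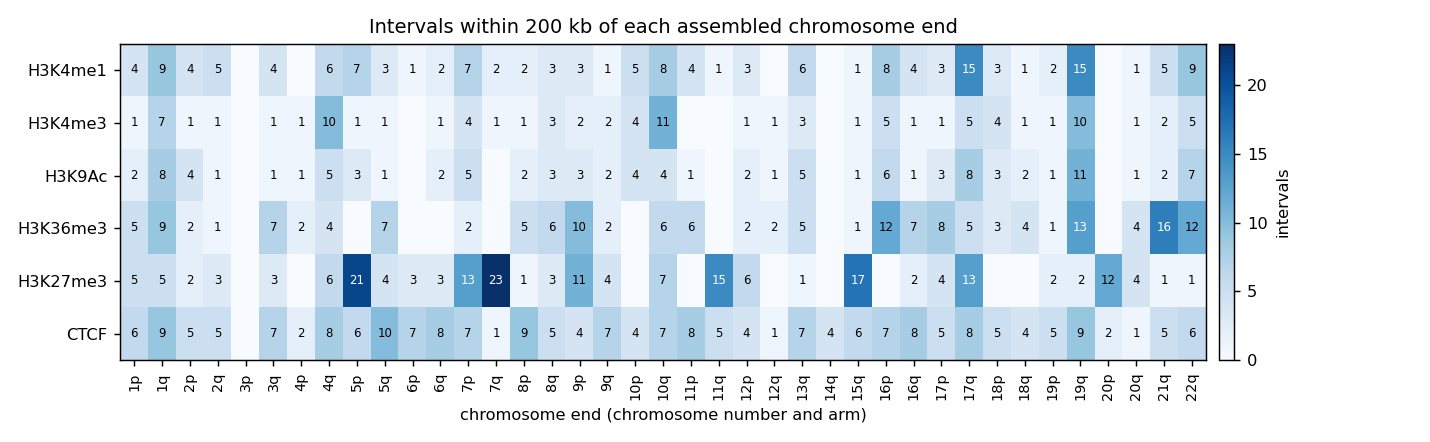
Number of intervals of each mark (rows) within 200 kb of each of the 39 assembled chromosome ends (columns, chromosome number and arm), darker for more intervals. H3K27me3 reaches 23 at 7q, CTCF is absent only at 3p, and no other mark is present at 14q.

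H3K27me3 members were gathered at a few ends. The count was 23 at 7q, 21 at 5p, 17 at 15q, 15 at 11q, 13 each at 7p and 17q and 12 at 20p. At 7p and 17q the other marks were present too, with 7 and 15 H3K4me1 and 2 and 5 H3K36me3 intervals. H3K27me3 covered 56.9% of the assembled sequence at 11q, 49.3% at 12p, 40.5% at 15q, 34.5% at 5p and 33.4% at 7q, with fold enrichments of 2.44 to 4.41 at these 5 ends. The widest member, chr11:134909577-134928679 at 11q, measured 19103 bp. No H3K36me3 interval was present at 5p, 7q, 11q or 20p, and at 20p none of H3K4me1, H3K4me3 or H3K9Ac either. At 20p the intervals lay at the TSS of DEFB126 (3.45), DEFB127 (3.08) and DEFB128 (2.54), β-defensin genes expressed mainly in the male reproductive tract, but not at DEFB125. At 5p they lay over PLEKHG4B, with 3.33 at its TSS, and at 12p at IQSEC3, a gene of the synapse, with 4.41. The highest H3K27me3 member of all, 6.39, lay at 19q, chr19:59049995-59054363. It met only the edge of the zinc finger gene ZBTB45 and overlapped the widest H3K9Ac member. The TSS of ZBTB45 lay elsewhere and had H3K4me3 (20.1) and H3K9Ac (14.6) but no H3K27me3. The 19q interval was 1 of the 8 H3K27me3 members past the limits of the methods. The region 1 to 1.2 Mb inside held 13 H3K27me3 intervals at 11q, 8 at 7q, 4 at 5p, 3 at 20p and none at 15q, 12p, 7p or 17q.

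Of the 75 protein-coding genes, 40 (53.3%, 42.2 to 64.2) had H3K4me3 within 1 kb of the TSS, beside 64.7% (56.2 to 72.3) inside and 61.6% in the genome. H3K9Ac was found at 40 (53.3%), beside 69.2% inside and 64.3% in the genome, and H3K4me1 at 35 (46.7%), beside 66.9% and 61.2%. The other 3 lay near the share of the genome. CTCF was found at 20 (26.7%), beside 36.8% inside and 29.5% in the genome, H3K27me3 at 8 (10.7%), beside 6.77% and 9.60%, and H3K36me3 at 6 (8.00%), beside 12.8% and 6.49%. None of the 6 marks was found at 23 (30.7%, 21.4 to 41.8), beside 23.3% and 23.9%. The highest were METRNL at 17q with 46.0, ZMYND11 at 10p with 42.6, which encodes a reader of H3K36me3, and WASHC1 at 9p with 36.5, a subunit of the WASH complex that nucleates actin on endosomes. At 19q, 8 of 10 genes were marked, among them UBE2M (30.2), a NEDD8-conjugating enzyme, TRIM28 (25.6), a co-repressor of KRAB zinc finger proteins, and the zinc finger gene ZNF324B (27.8), but not SLC27A5 or ZNF132. At 13q the 3 genes CHAMP1, UPF3A and CDC16 had 24.1, 25.1 and 28.5. Their H3K9Ac values were 16.9, 17.0 and 17.3. At 12q the TSS of ZNF268 had 13.9, and ZNF10, ZNF140 and ZNF891 had no interval of any mark within 1 kb of theirs.

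At 29 ends a protein-coding gene lay within 200 kb, and the outermost one had H3K4me3 at 16 of them. These included FAM110C at 2p (31.4), DOC2B at 17p (33.8), FAM20C at 7p (35.9), PARD6G at 18q (29.7), PGBD2 at 1q (9.13) and ZNF595 at 4p (9.01). H3K27me3 was present at 2 of the outermost TSS, and 9 had no interval of any mark, among them OR4F5 at 1p, OR4F3 at 5q and OR4F17 at 19p. The H3K4me3 members overlapped an H3K9Ac interval in 83.2% (74.4 to 89.4), beside 98.4% inside and 98% of the whole list. These members are not all promoters of single genes. They include 7 weak intervals at 4q and 6 at 10q over repeats of DUX4, described below, where 6 of 16 annotated TSS had H3K9Ac.

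H3K36me3 members were most numerous and widest over gene bodies at a few ends. The most were at 21q with 16, over PRMT2, an arginine methyltransferase, and DIP2A. They covered 55.3% of the sequence at 13q and 29.7% at 21q. The highest member, 5.95, lay at 8q. It was followed by 5.47 at 12q, chr12:133778626-133780872 in ZNF268, and 5.40 at 19q, chr19:59056361-59068674 across TRIM28, CHMP2A and UBE2M. Zinc finger genes are known to carry H3K36me3 together with H3K9me3. H3K9me3 was not measured here. The middle range (quartiles) of the fold enrichment over all 169 members was 2.79 to 3.44.

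A shared block at 1p, 9p, 12p, 15q, 16p and 19p carried several marks, which the plot of gene families shows by gene. It holds copies of DDX11L, a pseudogene family derived from the helicase gene DDX11, of WASH and of FAM138, a family of non-coding RNAs. For the family counts here and below, the shares of the 75 protein-coding TSS near the ends serve as background. They were 26.7% for CTCF, 10.7% for H3K27me3, 8.00% for H3K36me3, 46.7% for H3K4me1 and 53.3% each for H3K4me3 and H3K9Ac. Many family members are not protein-coding, and over all 386 annotated genes near the ends 23.8% had H3K4me3. Such a share is not given for the other marks. All 8 annotated DDX11L genes at 5 ends had a CTCF interval within 1 kb of the TSS, with values of 16.2 to 38.1, the intervals of the first sequence group above. At 1p, 15q and 16p overlapping entries share the same interval, so the 8 genes rest on 1 CTCF interval for each of the 5 ends. Of 6 WASH genes, 3 had H3K4me3 within 1 kb of the annotated TSS, and WASH3P, WASH4P and WASH5P did not. The highest H3K4me3 members of all were among these, 63.9 at WASH8P of 12p and 50.8 at WASH7P of 1p. The copy at 19p, which overlapped WASH5P more than 1 kb from its annotated TSS, reached 43.1. That at 15q, chr15:102501007-102503386, reached 41.1 and ended before the annotated start of WASH3P at 102506278. The H3K4me3 interval of 1p had 5 copies, at 97.7 to 99.9% identity. At the annotated TSS of WASH3P, WASH4P and WASH5P lay H3K36me3, at 4.07, 3.42 and 3.82. FAM138 had H3K27me3 within 1 kb of the TSS at 4 of 5 genes, from 3.0 at FAM138A to 3.8 at FAM138D, and no interval of another mark there. At FAM138C of 9p no interval lay within 1 kb of the TSS, but an H3K27me3 interval, chr9:33900-35174, overlapped the gene, with 3.25. The promoter of WASH7P and of the non-coding MIR1302-2HG, which starts on the other strand, is printed because these H3K4me3 and H3K9Ac (32.0) intervals sit on it, with each CG in capitals.
WASH7P and MIR1302-2HG, chr1:29462-29661, plus strand: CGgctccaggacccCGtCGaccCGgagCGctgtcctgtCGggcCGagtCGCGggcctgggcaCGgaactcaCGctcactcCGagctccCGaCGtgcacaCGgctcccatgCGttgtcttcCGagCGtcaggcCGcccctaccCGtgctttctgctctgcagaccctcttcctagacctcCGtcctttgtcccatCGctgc

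These 200 bases hold 22 CG dinucleotides at a GC content of 68.0%, and the start sites of WASH7P and MIR1302-2HG, at 29570 and 29554 of chromosome 1, lie inside them.

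Of the other subtelomeric families some were unmarked and some were not. None of the 15 genes of OR4F, a family of olfactory receptors, had H3K4me1, H3K4me3, H3K9Ac, H3K36me3 or CTCF within 1 kb of the TSS. Of these, 6 had H3K27me3, at 3.10 to 3.70, and all 6 lay at 15q. OR4F13P is counted among them under separate, overlapping entries. None of the 8 CICP, 6 SEPTIN14P, 4 IL9R and 2 FRG2 genes had an interval of any mark. Of the 4 TUBB8 genes, 1 had CTCF (3.42). RABL2B at 22q, a small GTPase gene, had H3K4me3 at 27. Of 10 RPL23AP pseudogenes, 5 had H3K36me3, 4 CTCF, 3 H3K4me1 and 1 each H3K4me3 and H3K9Ac, and RPL23AP47 and RPL23AP67 had none of the 6. WASIR2 at 16p, a non-coding RNA gene, had CTCF (11.1), H3K9Ac (4.07) and H3K4me1 (3.68). No FRG1 gene lay within 200 kb of an end in the annotation, and no gene name began with TERRA.

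**Figure D5:**
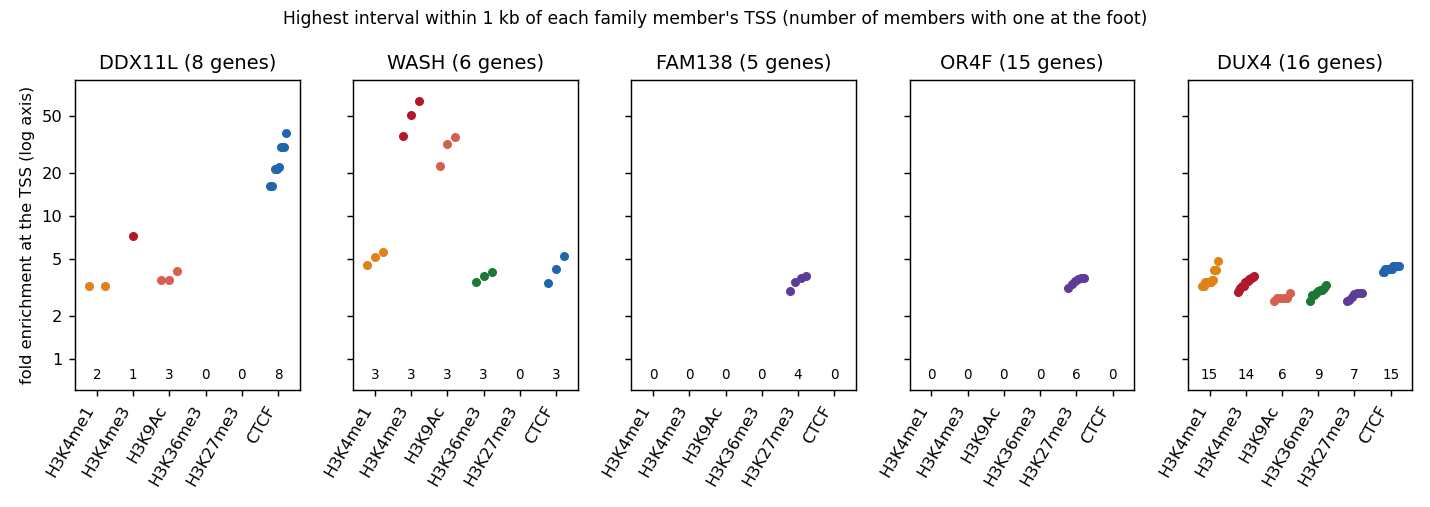
Fold enrichment (log axis) of the highest interval within 1 kb of the TSS of each member of 5 gene families near chromosome ends, by mark. There is 1 point for each annotated gene, with overlapping entries counted separately, and numbers at the foot count the genes with an interval. DDX11L has CTCF at all 8, FAM138 and OR4F have H3K27me3 alone, and the 14 H3K4me3 values of DUX4 lie between 2.91 and 3.81.

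The macrosatellite arrays of DUX4 at 4q and 10q carried weak H3K4me3 along the repeats. DUX4 encodes an embryonic transcription factor whose expression from the last repeat at 4q causes facioscapulohumeral muscular dystrophy, and each repeat holds a copy of the gene. Within 1 kb of the TSS, 14 of 16 annotated DUX4 genes had H3K4me3, 15 had CTCF, 15 H3K4me1, 9 H3K36me3, 7 H3K27me3 and 6 H3K9Ac. Of all annotated TSS near the ends, 23.8% had H3K4me3. Of the protein-coding ones there, 26.7% had CTCF, 46.7% H3K4me1, 8.00% H3K36me3, 10.7% H3K27me3 and 53.3% H3K9Ac. The overlapping entries DUX4 and DUX4L1 are counted separately. At 4q the 7 H3K4me3 intervals over DUX4 genes ran from chr4:190991322-191013099 with midpoints 2588 to 3971 bp apart (median 3493.5) and fold enrichments of 2.91 to 3.81. At 10q the 6 intervals ran from chr10:135478150-135494945, 2927.5 to 3898 bp apart (median 2971.5), with 3.02 to 3.73. None of the 13 passed the limits of the methods. The GC content of these intervals was 71.0 to 78.7%, and each had 13 to 16 copies. One CTCF interval covered most of each array, 18142 bp at 4q with a fold enrichment of 4.24 and 18151 bp at 10q with 4.45, the widest CTCF members. At the DUX4 genes the values of all 6 marks lay between 2.54 and 4.80, and the number of repeats in HCT116, which the reference does not give, was not tested.

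H3K4me3 members with a copy had a lower median than those without, although the highest members, 63.9 at 12p and 50.8 at 1p, also had copies. The median fold enrichment was 3.88 over the 39 with a copy and 16.8 over the 56 without, and 43.6% and 78.6% of them passed the limits. For H3K9Ac the medians were 4.56 and 8.57, and for CTCF 6.10 and 6.54. Of the 39 H3K4me3 members with a copy, 13 belonged to the DUX4 arrays.

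The widest H3K4me3 and H3K9Ac members both lay at 19q. They were the H3K4me3 interval chr19:59083634-59088159 of 4526 bp at the zinc finger gene MZF1 and the H3K9Ac interval chr19:59050441-59057983 of 7543 bp at TRIM28. The highest H3K9Ac members, 35.9 at 12p, 32.0 at 1p and 29.3 at 15q, lay on the H3K4me3 intervals of the shared block described above. The widest H3K4me1 member measured 8280 bp and lay at 4q, chr4:190998815-191007094, over the DUX4 array.

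The highest H3K4me1 members had no copy elsewhere in hg19. At 17q the interval chr17:81030486-81032763, outside any annotated gene, reached 14.4, and a further one, chr17:81065922-81067924, reached 10.9. At 18p the interval chr18:11389-12706 reached 13.1 at 1388 bp from the first assembled base, inside the non-coding LINC02564. H3K4me3, H3K9Ac and CTCF intervals lay in the same place, with 5.54, 5.05 and 18.1. The nearest member of any mark to an end was the H3K4me1 interval of 16p, chr16:59813-61235, with 3.23, which begins 188 bp outside the assembled sequence. The nearest of H3K27me3 lay 12 bp inside at 12p, that of H3K9Ac 29 bp at 9p, that of H3K36me3 50 bp at 19p and that of H3K4me3 82 bp at 16p.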

How the data were processed

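Chromatin of HCT116 cells was immunoprecipitated with 7 antibodies, 1 well and 1 library each. Lists of 6 of these were used, and H3K27Ac was not analysed here. The labels name both single-end and paired-end reads. The submitters' processing notes name bcl2fastq 2.20.0.442, BWA 0.7.12, SAMtools 0.1.19 and MACS 1.4.2, with no roles, whereas the study's methods name MACS2 in broad mode at a cutoff of 0.1. The authors' deposited lists, in hg19, give each interval a fold enrichment over the reference (a ratio), a −log10 p-value and q-value, and a score that was not used. Depth cannot be read from them, so intervals cover counting error only.

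The limits of the methods are a q-value under 1e-03 and a fold over 2 for H3K4me1, H3K27me3 and H3K27Ac. For the other histone marks they are 1e-10 and 5. The methods name none for CTCF, for which the second pair was used. The deposited lists also hold intervals below these limits, and all intervals were used.

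Intervals were assigned to ends, bases counted without gaps, and genes taken from GENCODE 44 on hg19. Copies were found with minimap2 2.31, and motifs with Python 3.11.15 and pyfaidx 0.9.0.4. The CTCF core spans 12 bases. The scripts were tested on simulated data. With 1 library for each mark no test was made, and intervals of density ratios are Wilson intervals of the outer share of the counts. The members and lists were chosen with earlier results of these data known. Genes and intervals were named by a rule: for each mark the 3 highest, the widest and the outermost interval, the ends with the most and with none, the outermost protein-coding gene of an end, and subtelomeric gene families. Other named genes and intervals were picked after their values were seen.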

Additional observations from a re-analysis of the deposited data

How the results depend on the processing

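No paired analysis was possible because the lists come from 1 library for each mark, and no replicate could be left out. Of 107 alternative values, 4 were counted as reversed and 103 were not. Only density ratios whose main interval excluded 1 could be counted so, which makes the 103 no measure of stability. The H3K4me3 and H3K36me3 ratios, whose main intervals included 1, also crossed 1 under some of the settings below. The ratio of outer to inner density reversed for H3K4me1 with the outer 100 kb (1.02) and per protein-coding gene (1.07), and for H3K27me3 past the limits of the methods and with the fold limit raised 1.5 times (0.651 in both). With those same 2 settings it moved to 0.567 for H3K4me1 and to 0 for H3K36me3, which had 0 outer intervals. With the outer 100 kb it was 0.960 for H3K9Ac and 2.02 for CTCF. Against 2 to 2.2 Mb it was 1.25 for H3K4me3, 0.822 for H3K9Ac, 1.21 for H3K36me3 and 1.02 for H3K27me3. With unassembled bases counted it was 0.604 for H3K4me1, 0.754 for H3K36me3 and 1.17 for CTCF. Chosen after seeing the data were the counts per protein-coding gene, which gave 1.35 for H3K4me3, 0.935 for H3K9Ac, 1.34 for H3K36me3, 1.96 for H3K27me3 and 2.07 for CTCF, and the omission of copied sequence, which gave 1.17 for CTCF and 1.45 for H3K27me3. Also added then, CTCF in the first 20 kb was 41.0 per Mb past the limits and 61.9 without copies.

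The share of bases covered past the limits was 2.98% for H3K4me1, 1.80% for H3K4me3, 2.67% for H3K9Ac, 0% for H3K36me3, 1.24% for H3K27me3 and 1.48% for CTCF. In the outer 100 kb it was 5.50% for H3K4me1, 4.53% for H3K9Ac and 4.43% for CTCF. The share of members with a copy at 98% identity over 80% of the interval was 35.7% for H3K4me1, 34.9% for H3K36me3, 30.5% for H3K27me3 and 43.3% for CTCF. At 90% over 50% it was 45.2% for H3K27me3 and 65.0% for CTCF, and with copies near another end only 35% for H3K4me1 and 33.1% for H3K36me3. Over all annotated genes, 23.8% of TSS near the ends had H3K4me3. The cause of these shifts was not tested, beyond the fewer intervals that stricter limits leave.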
